A study of Rattus norvegicus with 2 samples.

Results

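The genes that set the passage from G1 into S phase were described in rat carotid arteries. They were the D-type cyclins Ccnd1, Ccnd2 and Ccnd3, the cyclin-dependent kinases Cdk4 and Cdk6, the Cip/Kip inhibitors Cdkn1a (p21), Cdkn1b (p27) and Cdkn1c (p57), the retinoblastoma gene Rb1 and the replication clamp gene Pcna. These 10 genes were taken by symbol, with earlier results of these data known, and all 10 were found among the 32623 genes of the count matrix.

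Carotid arteries of SD rats were digested whole and profiled with the 10x Genomics platform, which counts unique molecular identifiers (UMIs), 1 for each captured transcript end. The control library held the normal left arteries, with no treatment, and the case library the balloon-injured right arteries of the same 2 rats, taken 4 weeks after the balloon was passed. By the methods surgery was done at 8 weeks of age, and the labels give 12 weeks for both groups. In this model a balloon strips the inner lining of the artery, and a neointima made mostly of vascular smooth muscle cells (VSMCs) grows in the weeks that follow. Each library pooled the arteries of 2 rats, so there was 1 library per group, no replicate and no test. Intervals given here are 95% intervals for counting error only.

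In the G1 phase D-type cyclins bind CDK4 or CDK6, and the complex phosphorylates the retinoblastoma protein, which releases E2F factors that switch on S phase genes such as PCNA. The Cip/Kip proteins bind cyclin and kinase complexes and hold the cell in G1, and p21 is a main target of p53. In the artery p27 is known to hold VSMCs at rest, and D-type cyclins are induced by growth factors when VSMCs enter the cycle.

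Promoter entries of RefSeq (build GRCr8) matched 6 of the 10 genes, namely Ccnd3, Cdk4, Cdkn1a, Cdkn1b, Rb1 and Pcna. The 250 bases before the start of 3 of them are shown because these genes moved differently between libraries in VSMC-gated cells: Cdk4 was lower in the case library, Pcna was higher and Cdkn1a was almost level. Capitals mark GGGCGG (the GC box) and CCAAT (the CCAAT box) on either strand, and no 2 marked motifs overlapped in these windows. They lie at chr7:64771203-64771452 on the plus strand (Cdk4), chr20:7150682-7150931 on the plus strand (Cdkn1a) and chr3:139955821-139956070 on the minus strand (Pcna).
Cdk4: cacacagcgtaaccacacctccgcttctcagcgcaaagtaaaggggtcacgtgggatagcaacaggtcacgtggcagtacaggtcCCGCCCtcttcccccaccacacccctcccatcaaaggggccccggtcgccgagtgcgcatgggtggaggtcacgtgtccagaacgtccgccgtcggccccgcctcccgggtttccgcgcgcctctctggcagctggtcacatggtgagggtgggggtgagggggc
Cdkn1a: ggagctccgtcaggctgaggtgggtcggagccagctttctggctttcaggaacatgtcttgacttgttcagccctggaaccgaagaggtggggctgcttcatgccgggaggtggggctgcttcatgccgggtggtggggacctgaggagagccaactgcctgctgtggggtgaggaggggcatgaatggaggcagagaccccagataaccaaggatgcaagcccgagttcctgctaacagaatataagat
Pcna: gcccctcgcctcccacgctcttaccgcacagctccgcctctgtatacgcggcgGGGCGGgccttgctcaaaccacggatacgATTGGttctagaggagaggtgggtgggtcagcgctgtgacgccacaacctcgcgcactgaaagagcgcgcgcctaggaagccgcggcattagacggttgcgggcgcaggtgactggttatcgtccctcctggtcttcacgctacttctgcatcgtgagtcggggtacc
GGGCGG was found in 5 of the 6 windows, all but that of Cdkn1a, and in the same window of 30.5% of 33469 rat promoters. Sequence outside these windows, such as that before any other start of a gene, was not read. CCAAT was found in the promoters of Ccnd3, Cdkn1b and Pcna and in 34.0% of all promoters. TATAAA was found in 0 of the 6 and in 12.9% of all. The Rb1 window held 6 GGGCGG matches and 81.2% G and C, the highest of the 6, and the Cdkn1a window 58.8%, the lowest. These matches describe the letters of the windows and are not binding sites.

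The control library held 3321 barcodes with 24968329 UMIs and the case library 5656 barcodes with 28232614 UMIs, of which 2742 and 4930 were kept. A total of 21 barcode sequences occurred in both libraries, 9 of them among kept cells. Cells were sorted into classes by a gate on marker genes that holds none of the 10 genes, and the cutoffs were set after marker levels had been seen. VSMC-gated cells numbered 1589 in control and 2655 in case, fibroblast-gated cells 720 and 1333, endothelial-gated cells 52 and 199, and macrophage-gated cells 40 and 104. Only 1 and 2 cells passed a T cell gate, while 231 control and 474 case cells passed no gate and 91 and 119 scored for more than 1 class. The 10 leading genes of each of these 4 classes held 2 to 5 of its own markers and 0 of another class. The gate used these same markers, so this was in part set in advance and is no check of the classes. Control cells were read more deeply, with a median of 9389 UMIs against 5495 in VSMC-gated cells and of 10896.5 against 5260 in fibroblast-gated cells. RNA of other cells was measurable in each class: the 6 fibroblast markers summed to 4039 CPM (UMIs per 1000000 UMIs of the class) in control and 3614 CPM in case VSMC-gated cells, against 52350 and 45037 CPM in fibroblast-gated cells, and the 6 VSMC markers to 937 and 943 CPM in fibroblast-gated cells, 1419 and 1263 CPM in endothelial-gated cells and 921 and 1687 CPM in macrophage-gated cells. The fibroblast markers were lower in case in both small classes, at 1053 and 550 CPM in endothelial-gated cells and 2879 and 1273 CPM in macrophage-gated cells. The 3 microvascular mural markers, all with a UMI in case and 2 of them in control, summed to 277 CPM in control and 84.7 CPM in case endothelial-gated cells, lower in case. Endothelial markers summed to at most 9.74 CPM and macrophage markers to at most 22.2 CPM in the 2 large classes. How much of a level in a small class comes from such RNA was not tested.

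Unsupervised clusters split the classes by library, which touches every comparison below. Of VSMC-gated cells, 52.0% in control fell into a cluster led by Acta2, Ramp1 and Ccn3, which held 6.03% in case. In case 43.7% fell into a cluster led by Fos and Lmcd1 and 42.0% into one led by Nav2, Zmiz1 and S100a4, with 7.93% and 4.03% in control. A further 16.8% of control VSMC-gated cells, with a median of 486 UMIs, lay in a cluster led by haemoglobin genes. Of fibroblast-gated cells, 75.0% in control and 44.4% in case fell into a cluster led by Alpl and Pdgfrl, and 15.6% and 50.0% into one led by Cilp, Has2 and Cyp1b1. Of endothelial-gated cells, 88.5% in control and 55.3% in case fell into a cluster led by Pkhd1l1 and Vwf, and 11.5% and 43.7% into one led by Fabp4, Plvap and Ccl21. Of the 10 genes, Ccnd1 and Cdkn1c were among the variable genes used to form these clusters.

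A gene was called past the limit when its levels differed at least 1.5-fold between libraries, its mean was at least 20 CPM and each library had a UMI of it. In VSMC-gated cells 8 of the 10 genes could be read this way, 0 were called higher and 1 lower in case (Cdk4), while 6.18% of 4774 genes were called higher and 14.5% lower. In fibroblast-gated cells 6 genes could be read, with 0 higher and 1 lower (Ccnd3), while 6.19% of 4413 genes were higher and 13.4% lower. In endothelial-gated cells 8 could be read, with 1 higher (Cdkn1a) and 4 lower (Ccnd2, Cdk4, Cdkn1c and Rb1), while 17.7% of 5009 genes were higher and 28.0% lower. In macrophage-gated cells 6 could be read, with 2 higher (Ccnd1 and Cdkn1c) and 1 lower (Cdk4), while 20.8% of 4439 genes were higher and 16.9% lower. The median log2 ratio of case over control was -0.09, -0.29, -0.64 and 0.02 over the genes read in these 4 classes and -0.12, -0.07, -0.14 and 0.03 over all genes read. Of all genes past the limit, 29.9% in VSMC-gated, 31.5% in fibroblast-gated, 38.7% in endothelial-gated and 55.3% in macrophage-gated cells were higher in case. Under TMM scaling, which centres the ratios, these shares were 50.2%, 42.0%, 60.4% and 56.5%.

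**Figure D1:**
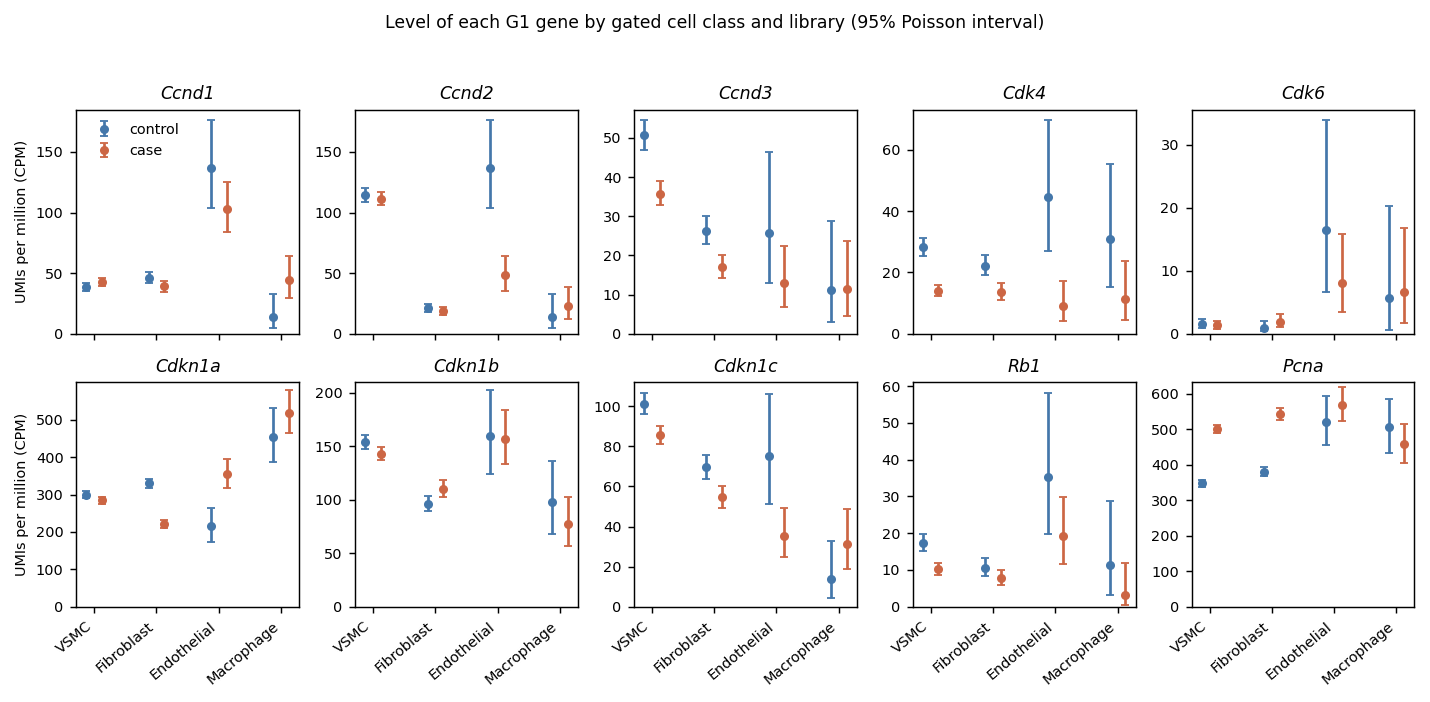
Level of each gene in CPM (linear axis from 0) in 4 gated cell classes, control in blue and case in orange, 1 library each, with bars for the 95% Poisson interval. Pcna was higher in case in VSMC-gated (347 and 499.7 CPM) and fibroblast-gated cells, and Cdk4 was lower in case in each of the 4 classes.

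Among the D-type cyclins the classes differed in which gene prevailed. Ccnd2 made up 56.2% of D cyclin UMIs in control and 58.5% in case VSMC-gated cells (intervals 54.4 to 58.1% and 56.7 to 60.3%). In fibroblast-gated cells Ccnd1 led, with 49.3% and 52.2% (45.7 to 52.97% and 48.0 to 56.4%). In endothelial-gated cells Ccnd1 and Ccnd2 were equal in control, with 58 UMIs each, and Ccnd1 led in case with 62.6% (54.7 to 70.0%). Summed D cyclin levels were 203 and 190.0 CPM in VSMC-gated cells, 93.7 and 74.8 CPM in fibroblast-gated cells, 298 and 164 CPM in endothelial-gated cells and 39.3 and 78.8 CPM in macrophage-gated cells.

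Ccnd1, the cyclin D gene best known as a target of growth factor signals, was at 38.3 CPM in control (527 UMIs) and 43.0 CPM in case (663 UMIs) VSMC-gated cells. The log2 ratio was 0.17 (0.00 to 0.34), a small difference. Within each of the 3 main VSMC clusters the gap was wider: 40.1 against 75.1 CPM (log2 0.90, 0.59 to 1.21) in the cluster led by Acta2, 16.8 against 37.7 CPM (1.17, 0.37 to 2.10) in that led by Fos, and 26.9 against 43.0 CPM (0.68, -0.15 to 1.65) in that led by Nav2. In both libraries the level was the highest of the 3 in the Acta2-led cluster, which held most of the control cells and few of the case cells. This split was made after the levels had been seen, and Ccnd1 itself was 1 of the variable genes behind the clusters.

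In fibroblast-gated cells Ccnd1 stood at 46.2 CPM in control and 39.1 CPM in case (log2 -0.24, -0.47 to -0.02). Within the cluster led by Alpl the ratio was close to this, at -0.19 (-0.48 to 0.09), with an interval that included 0. Within that led by Cilp, which held more of the case cells and had the lower level in both libraries, it was 0.30 (-0.31 to 0.95). Endothelial-gated cells had the highest levels, 136 CPM in control (58 UMIs) and 103 CPM in case (102 UMIs), and their intervals overlapped. In macrophage-gated cells the values were 14.0 CPM (5 UMIs in 4 cells) and 44.4 CPM (27 UMIs in 10 cells), and 1 case cell alone held 12 of the 27 UMIs, without which the level was 25.01 CPM. In control the order of the 4 classes was endothelial, fibroblast, VSMC and macrophage, and each exceeded the next beyond counting error. In case the endothelial level exceeded that of macrophages beyond counting error, while macrophage, VSMC and fibroblast levels did not differ from their neighbours in the order beyond it.

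Ccnd2, the D cyclin with the most UMIs in VSMCs here, was level between libraries, at 114 CPM in control (1572 UMIs) and 111 CPM in case (1713 UMIs), with a log2 ratio of -0.04 (-0.14 to 0.06). It was found in 46.8% of control and 42.3% of case VSMC-gated cells, and in 19.4% and 19.2% after each cell had been thinned to 2000 UMIs. In fibroblast-gated cells it was at 21.1 and 18.7 CPM. In endothelial-gated cells it was at 136 CPM in control (58 UMIs) and 48.4 CPM in case (48 UMIs), so that case was lower by a log2 ratio of -1.49 (-2.08 to -0.92), which was -0.87 after thinning to 2000 UMIs per cell. Within the endothelial cluster led by Pkhd1l1 and Vwf the levels were 153 and 64.1 CPM (-1.25, -1.88 to -0.64), so the gap was also there among cells of 1 cluster. Macrophage-gated cells held 5 and 14 UMIs.

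Ccnd3 was lower in case in both large classes. VSMC-gated cells held 50.7 CPM in control (697 UMIs) and 35.8 CPM in case (551 UMIs), a log2 ratio of -0.50 (-0.67 to -0.34) that stayed inside the 1.5-fold limit and came to -0.26 with equal weight per cell and -0.16 after thinning to 2000 UMIs. The VSMC clusters did not all have this difference: the levels were 54.5 and 40.0 CPM in the Acta2-led cluster (-0.45, -0.86 to -0.05), 38.7 and 44.6 CPM in the Fos-led cluster (0.20, -0.34 to 0.80) and 31.4 and 28.5 CPM in the Nav2-led cluster (-0.14, -0.92 to 0.76). Fibroblast-gated cells held 26.4 CPM (211 UMIs) and 17.0 CPM (128 UMIs), a log2 ratio of -0.63 (-0.96 to -0.31) that lay just past it. Within the fibroblast cluster led by Alpl the levels were 29.7 and 22.3 CPM (-0.41, -0.81 to -0.03), and within that led by Cilp 10.2 and 12.0 CPM on 14 and 45 UMIs (0.24, -0.65 to 1.22). The share of cells in the cluster with the lower level was larger in case, and its part in the pooled ratio was not tested. In each library VSMC-gated cells held more Ccnd3 than fibroblast-gated cells beyond counting error, and the endothelial (25.9 and 13.1 CPM) and macrophage levels (11.2 and 11.5 CPM) rested on 4 to 13 UMIs.

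**Figure D2:**
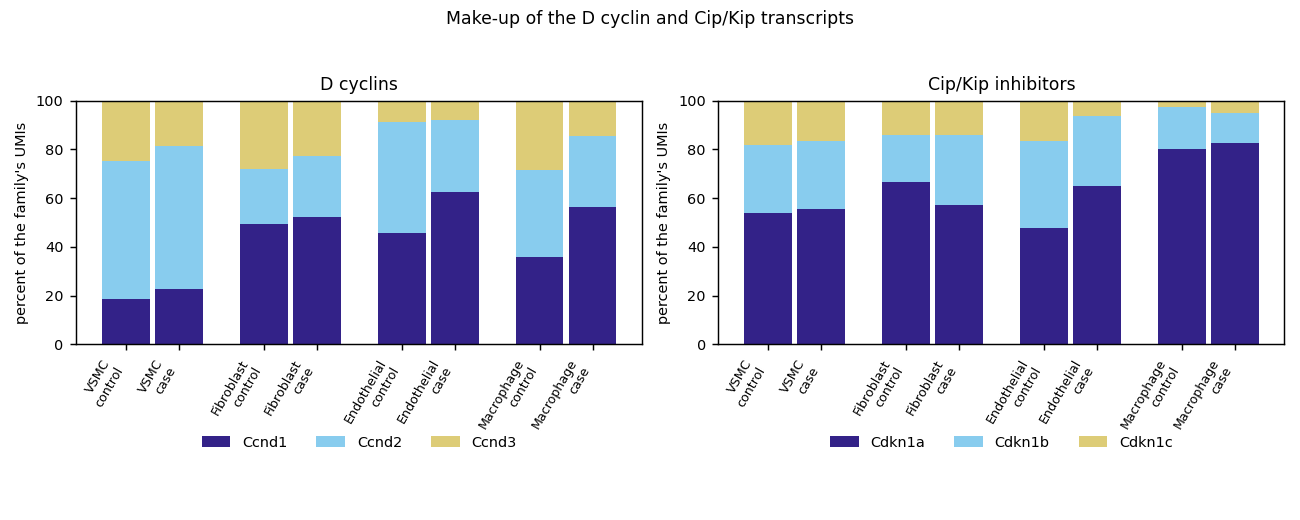
Share of each gene in the summed UMIs of its family (percent, bars from 0 to 100) by gated class and library, D cyclins on the left and Cip/Kip inhibitors on the right. Ccnd2 took 56.2% and 58.5% of D cyclin UMIs in VSMC-gated cells, Ccnd1 49.3% and 52.2% in fibroblast-gated cells, and Cdkn1a the largest Cip/Kip share in all 8 bars.

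Of the kinases, only Cdk4 had enough UMIs to compare libraries, and it was lower in case. In VSMC-gated cells it was at 28.2 CPM in control (387 UMIs) and 14.0 CPM in case (216 UMIs), 2.01-fold lower in case (log2 -1.01, -1.25 to -0.76). The fraction of VSMC-gated cells with a UMI was 20.1% in control and 7.50% in case, and 5.75% and 2.47% after thinning to 2000 UMIs per cell, which left 1079 of 1589 control and 2550 of 2655 case cells. Within the Acta2-led cluster the levels were 29.1 and 12.6 CPM (log2 -1.20, -1.98 to -0.52), within the Fos-led cluster 25.8 and 15.1 CPM (-0.77, -1.48 to 0.01) and within the Nav2-led cluster 17.9 and 14.1 CPM (-0.35, -1.39 to 0.91). All 3 were lower in case, and only the first interval lay wholly below 0. Where cells were weighted equally or thinned, the mean level of Cdk4 came to under 20 CPM, so that it was not read and the count of genes past the limit was 0.

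Fibroblast-gated cells held 22.2 CPM of Cdk4 in control (178 UMIs) and 13.5 CPM in case (102 UMIs), a log2 ratio of -0.71 (-1.08 to -0.36) at a mean below 20 CPM. Endothelial-gated cells held 44.7 CPM in control (19 UMIs in 15 of 52 cells) and 9.07 CPM in case (9 UMIs in 8 of 199 cells), a log2 ratio of -2.30 (-3.63 to -1.09). Macrophage-gated cells held 11 and 7 UMIs (30.9 and 11.5 CPM), with an interval that included 0 (-3.03 to 0.07). Case was thus lower in each of the 4 classes, and beyond counting error in 3 of them.

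Cdk6, the kinase that shares the D cyclins with Cdk4, was near the floor of the measurement. VSMC-gated cells held 21 UMIs in each library, or 1.53 and 1.36 CPM, and fibroblast-gated cells 8 and 14 UMIs. Endothelial-gated cells had the highest levels, 16.5 CPM in control (7 UMIs) and 8.06 CPM in case (8 UMIs). No difference between libraries could be detected at this depth.

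Summed, the Cip/Kip inhibitors were higher than the kinases in each class. The sums were 555 and 513 CPM in VSMC-gated, 495 and 385 CPM in fibroblast-gated, 451 and 547 CPM in endothelial-gated and 567 and 627 CPM in macrophage-gated cells. As a single gene Cdkn1c lay below Cdk4 in control macrophage-gated cells, at 14.0 against 30.9 CPM. Cdkn1a, the p21 gene, led the family in each class and library, with 47.9 to 82.7% of its UMIs in the 4 classes. In VSMC-gated cells it was at 299 CPM in control (4117 UMIs) and 284 CPM in case (4377 UMIs), a log2 ratio of -0.08 (-0.14 to -0.01) whose sign turned under TMM scaling (0.05). Its UMIs were uneven among cells: the 5% of VSMC-gated cells richest in it held 35.5% of its UMIs in control and 25.4% in case, and 1 control cell held 87. A UMI was found in 59.5% of control and 66.7% of case cells, and in 37.2% and 37.8% after thinning. The clusters differed more than the class: case was higher in the Fos-led cluster (166 and 229 CPM, log2 0.46, 0.20 to 0.73), lower in the Nav2-led cluster (561 and 329 CPM, -0.77, -0.96 to -0.58), and level in the Acta2-led cluster (302 and 317 CPM, 0.07, -0.07 to 0.21). The control values rested on 126 cells with 129 UMIs in the Fos-led cluster and 64 cells with 250 UMIs in the Nav2-led cluster. The intervals leave out the unevenness among cells.

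In fibroblast-gated cells Cdkn1a was at 329.8 CPM in control (2640 UMIs) and 220.1 CPM in case (1657 UMIs). The log2 ratio of -0.58 (-0.67 to -0.49) lay just under the 1.5-fold limit. It was lower in case in both fibroblast clusters, 348 and 267 CPM in that led by Alpl (-0.38, -0.50 to -0.27) and 229.7 and 172 CPM in that led by Cilp (-0.42, -0.62 to -0.22). In endothelial-gated cells the direction was opposite, with 216 CPM in control (92 UMIs) and 355 CPM in case (352 UMIs), a log2 ratio of 0.71 (0.38 to 1.06). Within the endothelial cluster led by Pkhd1l1 the levels were 156 and 186 CPM (0.26, -0.21 to 0.74), and within that led by Fabp4 715 and 624 CPM (-0.20, -0.73 to 0.37). Both ratios lay below the pooled ratio, with intervals that included 0. The Fabp4-led cluster, in which the level was high in both libraries, held 6 of 52 control and 87 of 199 case endothelial-gated cells. Macrophage-gated cells held 455 and 519 CPM with a ratio whose interval included 0 (-0.09 to 0.47).

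Cdkn1b, the p27 gene, differed little between libraries. It was at 154 and 143 CPM in VSMC-gated cells (2120 and 2206 UMIs, log2 -0.11, -0.19 to -0.02), with a sign that turned under TMM scaling and under equal weights per cell. Within the VSMC clusters led by Acta2, Fos and Nav2 the ratio was -0.28 (-0.51 to -0.06), -0.30 (-0.56 to -0.03) and -0.13 (-0.48 to 0.24). In fibroblast-gated cells it was at 96.2 and 110.4 CPM (770 and 831 UMIs, log2 0.20, 0.06 to 0.34), within the Alpl-led cluster at 97.1 and 91.8 CPM and within the Cilp-led cluster at 88.7 and 118 CPM (0.41, 0.12 to 0.72). Endothelial-gated cells, at 159.8 and 157 CPM, did not differ from VSMC-gated cells beyond counting error in either library. Macrophage-gated cells were at 98.3 and 77.2 CPM on 35 and 47 UMIs.

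Cdkn1c, the p57 gene, was highest in VSMC-gated cells among the 4 classes in both libraries, though in control not beyond counting error above endothelial-gated cells. The values were 101 CPM in control (1393 UMIs) and 85.6 CPM in case (1318 UMIs) in VSMC-gated cells (log2 -0.24, -0.35 to -0.13) and 69.4 and 54.6 CPM in fibroblast-gated cells (556 and 411 UMIs, log2 -0.35, -0.53 to -0.16). None of the 3 main VSMC clusters was lower in case: the levels were 104 and 125 CPM in the Acta2-led cluster (0.26, 0.02 to 0.49), 71.0 and 81.8 CPM in the Fos-led cluster (0.21, -0.20 to 0.63) and 83.0 and 84.3 CPM in the Nav2-led cluster (0.02, -0.46 to 0.54). The fibroblast clusters were both lower in case, by ratios of -0.60 (-0.87 to -0.33) in that led by Alpl and -0.17 (-0.52 to 0.19) in that led by Cilp. Cdkn1c was uneven as well, with up to 40 UMIs in a control and 35 in a case VSMC-gated cell. In endothelial-gated cells it was at 75.2 CPM in control (32 UMIs) and 35.3 CPM in case (35 UMIs), a log2 ratio of -1.09 (-1.83 to -0.35). Macrophage-gated cells held 5 UMIs in control and 19 in case (14.0 and 31.2 CPM), and the interval of the ratio included 0 (-0.32 to 2.93).

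**Figure D3:**
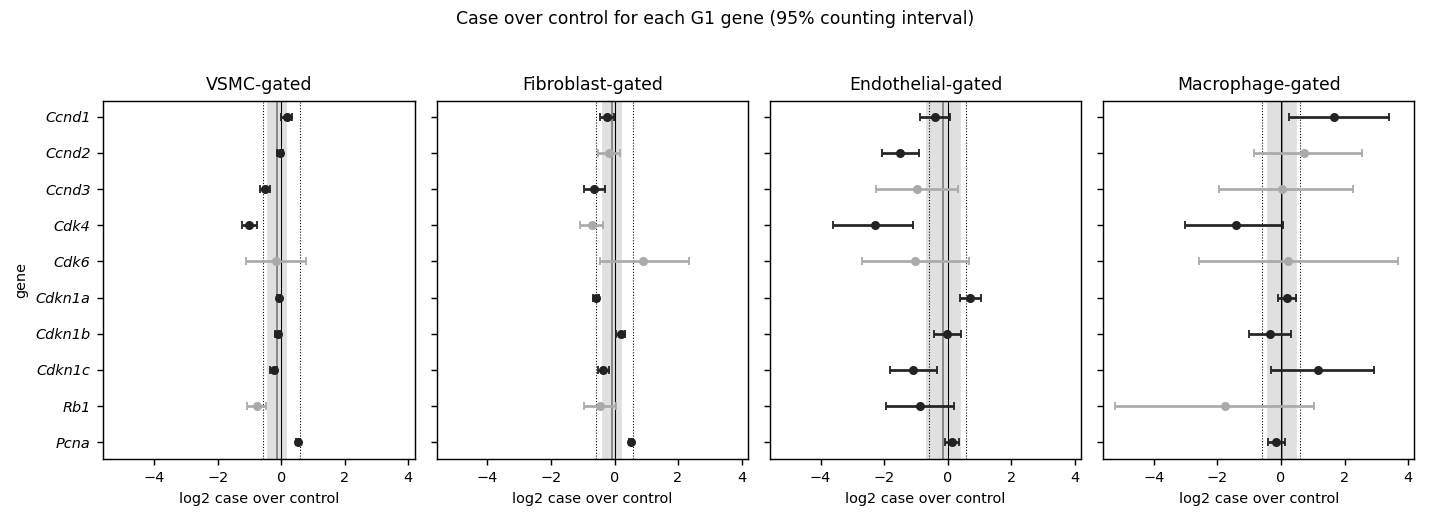
Log2 ratio of case over control for each gene in 4 gated classes (horizontal axis) with 95% counting intervals. Black points mark genes whose mean reached 20 CPM and grey points those below, the grey band runs from the lower to the upper quartile of all genes read with their median as a line, and dotted lines mark 1.5-fold. Pcna lay at 0.52 and 0.51 in VSMC-gated and fibroblast-gated cells, and Cdk4 at -1.01 in VSMC-gated cells.

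Rb1, whose product the cyclin D kinases phosphorylate, was low. VSMC-gated cells held 17.4 CPM in control (239 UMIs) and 10.1 CPM in case (156 UMIs), a log2 ratio of -0.78 (-1.08 to -0.48) at a mean below the 20 CPM limit. It was lower in case in each of the 3 main VSMC clusters, at 16.0 and 11.2 CPM, 21.9 and 9.18 CPM, and 29.2 and 11.1 CPM in those led by Acta2, Fos and Nav2, with intervals below 0 in the last 2. Fibroblast-gated cells held 10.6 and 7.70 CPM on 85 and 58 UMIs, with an interval that included 0. Endothelial-gated cells held 35.3 CPM on 15 UMIs and 19.1 CPM on 19 UMIs, past the limit but with an interval of -1.93 to 0.20. Macrophage-gated cells held 4 and 2 UMIs.

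Pcna, which codes for the sliding clamp of DNA polymerases, had the most UMIs of the 10 genes in both large classes. In VSMC-gated cells it was at 347 CPM in control (4776 UMIs) and 499.7 CPM in case (7696 UMIs), a log2 ratio of 0.52 (0.47 to 0.58). In fibroblast-gated cells it was at 381 CPM (3051 UMIs) and 543 CPM (4089 UMIs), a ratio of 0.51 (0.44 to 0.58). Both lay under the 1.5-fold limit, and that of VSMC-gated cells passed it under TMM scaling (0.65) and that of fibroblast-gated cells with equal weight per cell (0.59). After thinning to 2000 UMIs a UMI of Pcna was found in 45.2% of control and 58.9% of case VSMC-gated cells and in 46.5% and 61.7% of fibroblast-gated cells. Without thinning these shares were 66.6 and 83.8%, and 85.4 and 83.5%. Case was higher in each main cluster of both classes: log2 0.52 (0.40 to 0.64), 0.49 (0.32 to 0.67) and 0.38 (0.16 to 0.61) in the VSMC clusters led by Acta2, Fos and Nav2, and 0.42 (0.34 to 0.51) and 0.86 (0.71 to 1.02) in the fibroblast clusters led by Alpl and Cilp. Endothelial-gated cells held 522 and 569 CPM (-0.10 to 0.36) and macrophage-gated cells 506 and 458 CPM (-0.42 to 0.14), with intervals that included 0.

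The other S phase genes did not have levels like that of Pcna. Of a list of 23, the histone mRNA binding gene Slbp was highest, at 233 and 168 CPM in VSMC-gated cells, where it was lower in case (log2 -0.47). The next gene was at 15.6 CPM in control (Rpa2) and 14.5 CPM in case (Rrm1) in VSMC-gated cells, and at 16.4 and 15.1 CPM in fibroblast-gated cells (Mcm7 in both). The median of the 23 genes was 4.80 and 4.93 CPM in VSMC-gated cells and 4.87 and 4.12 CPM in fibroblast-gated cells. In VSMC-gated cells 1 of the 23 could be read and 0 were past the limit. The summed level of the 23 genes was 375 CPM in control and 306 CPM in case VSMC-gated cells and 333 and 308 CPM in fibroblast-gated cells. Without Slbp, which made up most of the difference in VSMC-gated cells, the other 22 genes summed to 142 and 138 CPM in VSMC-gated cells and to 118 and 108 CPM in fibroblast-gated cells. Single genes of the list went both ways in VSMC-gated cells at low levels. Higher in case were Mcm6 of the replicative helicase at 3.64 and 7.86 CPM (log2 1.11, 0.62 to 1.62) and the helicase loader Cdc6 at 9.38 and 12.8 CPM (0.45, 0.12 to 0.78). Intervals also lay above 0 for Mcm4 (0.39) and Cdt1 (0.60). They lay below 0 for Tyms at 4.80 and 1.69 CPM (-1.51, -2.22 to -0.83), Rfc4 (-0.74), Lig1 (-0.49) and Rpa2 (-0.34), as for Slbp. Mcm4, Mcm6, Cdc6, Cdt1, Tyms, Rfc4, Lig1 and Rpa2 are named after their values were seen.

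**Figure D4:**
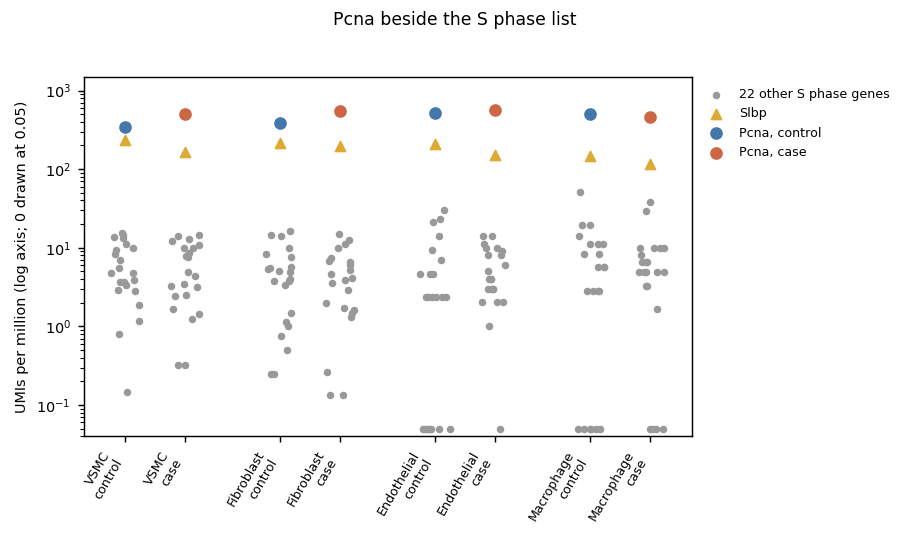
Pcna (large points, blue for control and orange for case), Slbp (triangles) and the 22 other genes of the S phase list (grey points) in CPM on a log axis, by gated class and library, with genes at 0 drawn at 0.05. Pcna lay above each gene of the list in all 8 columns, from 347 to 569 CPM.

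Genes of G2 and mitosis were low in VSMC-gated cells. In VSMC-gated cells 0 of 17 measured genes reached a mean of 20 CPM, the highest was at 15.7 and 17.9 CPM, and Mki67, the proliferation marker, was at 8.37 and 8.44 CPM. Of the 17, Tpx2 alone had an interval there that did not include 0. It was higher in case, at 4.07 and 8.57 CPM on 56 and 132 UMIs (log2 1.07, 0.61 to 1.55). Cells with UMIs of at least 2 of 6 core mitotic genes numbered 9 of 1589 control (0.566%, interval 0.259 to 1.07%) and 4 of 2655 case VSMC-gated cells (0.151%, 0.0411 to 0.385%). In fibroblast-gated cells they numbered 2 of 720 and 2 of 1333. These shares were not thinned, and control cells were read more deeply. In the other classes 1 of the 17 genes could be read in each. In fibroblast-gated and endothelial-gated cells it was Nusap1, a spindle protein, past the limit upwards in both, at 21.2 and 41.2 CPM (log2 0.96, 0.68 to 1.23) and at 28.2 CPM (12 UMIs) and 183 CPM (182 UMIs) (2.70, 1.86 to 3.68). In macrophage-gated cells Nusap1 had 0 and 8 UMIs. It was also among the leading genes of a cluster led by Pycard and Lag3, at 222 CPM against 23.7 CPM in other cells. Mki67 was level in fibroblast-gated cells, at 9.24 and 9.30 CPM. Among genes too low to be read in fibroblast-gated cells, intervals lay below 0 for Bub1 (39 and 20 UMIs), Cenpf (14 and 1) and Tpx2 (12 and 3). The interval lay above 0 for Aurkb (0 and 7). Tpx2 thus went opposite ways in the 2 large classes. Nusap1, Bub1, Cenpf, Tpx2 and Aurkb are named after their values were seen.

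The other partners of the pathway were read on the same limit. Of 23 measured G1/S partners 11 could be read in VSMC-gated cells, 0 were past the limit upwards and 1 downwards, beside 6.18% and 14.5% of all genes. That gene was Tfdp1, the E2F dimer partner, at 33.0 and 20.1 CPM (log2 -0.72, -0.93 to -0.50), and the median was -0.05 against -0.12 over all genes. Among the genes read and under the limit, intervals lay above 0 for Myc (0.50, 0.37 to 0.62), E2f4 (0.36, 0.14 to 0.58) and Ccnh, the cyclin of the CDK-activating kinase (0.51, 0.35 to 0.68). They lay below 0 for Cks1b (-0.44, -0.57 to -0.32), Mnat1 (-0.39, -0.61 to -0.17) and the CDK4 and CDK6 inhibitor gene Cdkn2c (-0.51, -0.75 to -0.28). The intervals of the other genes read included 0, that of Cdk7 among them (-0.05, -0.26 to 0.16). Among genes too low to be read in VSMC-gated cells, intervals lay above 0 for E2f3 (0.48, 0.14 to 0.82) and E2f6 (0.31, 0.03 to 0.59). They lay below 0 for Ccne1 (-0.42, -0.71 to -0.13), Tfdp2 (-0.65, -0.97 to -0.33), Cdk2 (-0.30, -0.60 to -0.01) and Rbl1 on 14 and 5 UMIs (-1.65, -3.48 to -0.09). In fibroblast-gated cells 7 could be read, with 0 higher and 1 lower, beside 6.19% and 13.4% of all genes. The lower gene was Cks1b, which aids the breakdown of p27, at 60.7 and 37.1 CPM (-0.71, -0.93 to -0.50). Among genes too low to be read there, intervals lay above 0 for Cdkn2b on 17 and 47 UMIs (1.56, 0.73 to 2.45) and Fbxw7 (0.59, 0.20 to 0.98). They lay below 0 for Ccne1 (-0.69, -1.25 to -0.14) and E2f5 (-0.64, -1.24 to -0.06). In endothelial-gated cells 1 of 9 was higher and 2 were lower, beside 17.7% and 28.0% of all genes. In macrophage-gated cells 0 of 6 were higher and 1 was lower, beside 20.8% and 16.9%. Myc, E2f3, E2f4, E2f5, E2f6, Ccnh, Cks1b, Mnat1, Cdkn2c, Cdk7, Cdk2, Tfdp2, Rbl1, Cdkn2b, Fbxw7 and Ccne1 are named after their values were seen.

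Of 14 measured p53 targets, the group to which Cdkn1a belongs, 10 could be read in VSMC-gated cells, with a median of -0.03. Aen, a nuclease of apoptosis, was higher in case at 29.1 and 54.0 CPM (log2 0.89, 0.72 to 1.07). Bax, which opens the mitochondrial membrane, was lower at 38.8 and 17.7 CPM (-1.13, -1.35 to -0.92), and so was Phlda3, an inhibitor of AKT, at 154 and 102 CPM (-0.59, -0.69 to -0.50). Among the targets read and under the limit, intervals lay above 0 for Ccng1 (0.29, 0.20 to 0.38), Sesn1 (0.26, 0.13 to 0.40) and Sesn2 (0.31, 0.20 to 0.41). They lay below 0 for Gadd45a (-0.09), Plk2 (-0.08) and Btg2 (-0.07). Mdm2, the ubiquitin ligase of p53, was level at 141 and 143 CPM. Ccng1, Sesn1, Sesn2, Gadd45a, Plk2, Btg2 and Mdm2 are named after their values were seen. In fibroblast-gated cells 0 of 10 were higher and 2 lower, beside 6.19% and 13.4% of all genes. In endothelial-gated cells 4 of 10 were higher and 3 lower, beside 17.7% and 28.0%. In macrophage-gated cells 3 of 9 were higher and 2 lower, beside 20.8% and 16.9%.

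Immediate early genes, which are known to respond to tissue dissociation, were high in both libraries. The 14 genes summed to 14085 CPM in control and 13082 CPM in case VSMC-gated cells and to 10487 and 10769 CPM in fibroblast-gated cells. In VSMC-gated cells Fosl1 was higher in case (24.0 and 47.7 CPM, log2 0.99), and Jund (405 and 239 CPM, -0.76) and Ier3 (732 and 476 CPM, -0.62) were lower. In endothelial-gated cells 1 of 14 was higher and 7 were lower, beside 17.7% and 28.0% of all genes. The median was -0.69 against -0.14 over all genes, with sums of 25247 and 15872 CPM. The part of immediate early genes in the levels of Ccnd1 and Cdkn1a was not tested.

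Within the fibroblast-gated class the levels of several G1 genes differed between cells split by the level of another gene. Cells with at least 10 UMIs per 10000 of Gfpt2, an enzyme of the hexosamine pathway, numbered 280 of 720 in control and 564 of 1333 in case. Ccnd1 was at 26.7 CPM in them and 65.8 CPM in the other fibroblast-gated cells of control (log2 -1.30, -1.64 to -0.97), and at 23.1 and 55.5 CPM in case (-1.27, -1.64 to -0.90). Ccnd3 was at 14.7 and 38.0 CPM in control and 11.5 and 22.6 CPM in case, and Cdk4 at 15.2 and 29.3 CPM in control and 10.7 and 16.4 CPM in case. Cdkn1b, Cdkn1c and Pcna were lower in the Gfpt2-high cells of both libraries as well, with log2 ratios of -0.69 and -0.35, -0.60 and -0.78, and -0.35 and -0.42. Cdkn1a differed less, at 339.5 and 319.9 CPM in control (log2 0.09) and 206 and 235 CPM in case (-0.19). Rb1 was lower in the Gfpt2-high cells of control (-1.19) and not of case (0.26), on 26 to 59 UMIs, and Ccnd2 differed by -0.47 and -0.18. The Gfpt2-high cells were deeper, with medians of 14592 against 8690.5 UMIs in control and 6471 against 4521 in case. The cutoff was chosen after the data had been seen. The splits were read for the 10 genes alone, so whether lower levels were particular to these genes was not tested.

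**Figure D5:**
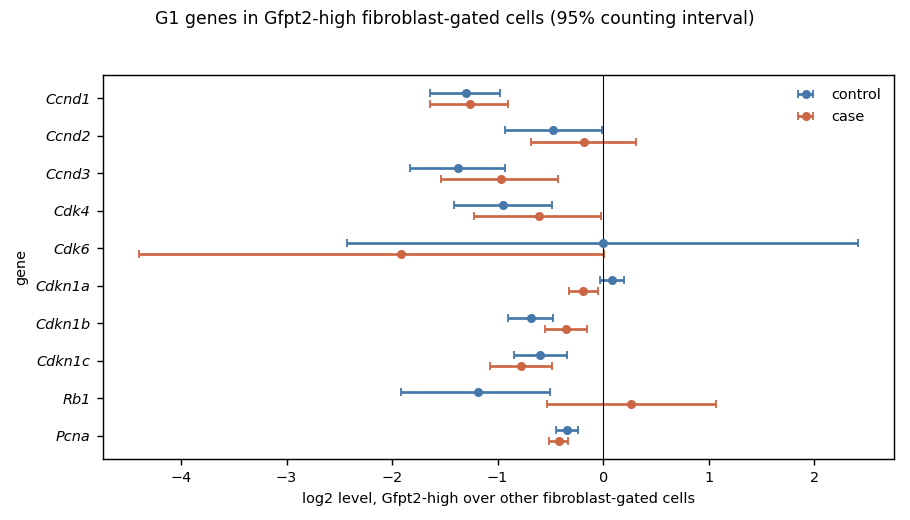
Log2 ratio of the level of each gene in Gfpt2-high over other fibroblast-gated cells (horizontal axis), control in blue and case in orange, with 95% counting intervals. Ccnd1 lay at -1.30 and -1.27 and Cdkn1a at 0.09 and -0.19.

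Cells rich in Pi16, a marker of adventitial fibroblasts, at the same cutoff numbered 394 of 720 in control and 358 of 1333 in case. Ccnd1 was higher in them in both libraries, at 56.3 against 33.3 CPM in control (log2 0.76, 0.43 to 1.08) and 58.9 against 31.6 CPM in case (0.90, 0.55 to 1.24). Pcna was slightly lower in both, by -0.24 and -0.17. Cdkn1a went opposite ways, at 291 against 379.7 CPM in control and 246 against 210.5 CPM in case. Cdkn1c did so too, with log2 ratios of 0.31 (0.06 to 0.56) in control and -0.46 (-0.82 to -0.12) in case. Cdk4 was higher in the Pi16-rich cells of control (0.62, 0.16 to 1.09), with an interval that included 0 in case (-0.45, -1.20 to 0.25). In case Ccnd3 was higher in them (1.00, 0.47 to 1.53) and Cdkn1b (-0.62, -0.88 to -0.37) and Ccnd2 (-0.73, -1.41 to -0.11) lower, while in control the intervals of these 3 genes included 0. For Cdk6 and Rb1 the intervals included 0 in both. Postn at the same cutoff marked 4 control and 99 case fibroblast-gated cells, and the control cells were too few to compare. In case the Postn-rich cells held less Cdkn1a (log2 -0.84, -1.17 to -0.54), Cdkn1c (-0.94, -1.65 to -0.31) and Pcna (-0.54, -0.73 to -0.37). Ccnd3 was lower in them as well, on 3 UMIs (-2.10, -4.40 to -0.52), and the intervals of the other genes included 0.

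In VSMC-gated cells a split by Spp1 (osteopontin, a gene of synthetic VSMCs) had 96 of 1589 and 137 of 2655 cells at or above the cutoff. These Spp1-rich cells had a median of 5093.5 UMIs against 9586 in the other cells of control, and 5042 against 5514.5 in case. Cdkn1a was at 384 against 295 CPM in control (log2 0.38, 0.20 to 0.56) and at 295 against 284 CPM in case (0.05, -0.15 to 0.25). For Ccnd1, Ccnd2, Ccnd3, Cdk4, Cdk6, Cdkn1c, Rb1 and Pcna the intervals included 0 in both libraries, some of them wide. For Cdkn1b the interval included 0 in case, while in control Cdkn1b was lower in the Spp1-rich cells (log2 -0.37, -0.70 to -0.06). A split by Notch1 took cells with a Notch1 UMI after thinning, 112 in control and 325 in case, against 967 and 2225 others. In control Cdk4 (-0.72, -1.34 to -0.15) and Cdkn1c (-0.50, -0.80 to -0.22) were lower in them and Pcna higher (0.14, 0.01 to 0.26). In case Cdkn1b was lower (-0.27, -0.47 to -0.08). All other intervals of this split included 0.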

How the data were processed

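The authors deposited 1 matrix of UMI counts per gene and cell barcode over both libraries, made with Cell Ranger 3.1.0 per the file headers, which runs STAR. The submitters' processing notes name Rnor_6.0 and Seurat. Whether reads were down-sampled on combining libraries is not given in the sources used here. Barcode suffixes were matched to libraries by the barcode numbers stated in the methods. The deposited gene symbols and barcodes were used as given, and 0 columns of per-sample values were left unused.

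The 10 genes, the lists and the comparisons were chosen with earlier results of these data known. Barcodes were kept with at most 20% mitochondrial UMIs, log10 UMIs and genes within 2 SD of the library mean, and genes within 3 robust SD of a linear fit of log genes on log UMIs. A cell's class score was the mean over markers of its level relative to the 99.5th percentile, limited to 1. A class needed a score of 0.10, 3 markers with a UMI and 1.5 times the next class. The markers were those of VSMCs (Acta2, Tagln, Cald1, Myl9, Myh11, Cnn1), fibroblasts (Col1a1, Col3a1, Dcn, Lum, Pdgfra, Dpt), endothelial cells, macrophages, Schwann cells and T cells. UMIs were summed per class and library and given per 1000000 UMIs (CPM), not per length. Intervals were exact (Poisson for levels, Clopper-Pearson for shares, conditional binomial for ratios), take in counting error alone, and 3 UMIs were allowed for a count of 0. With 1 library per group no test was made.

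Named were all 10 genes, from each list at most 6 genes past 1.5-fold in VSMC-gated cells with the largest log2 ratio and a mean of at least 20 CPM, and the 3 genes most like each of the 10. Within-cluster values and splits by Gfpt2, Pi16, Postn, Spp1 and Notch1 were added after the data had been seen. Alternatives covered scaling, depth, filters, doublets and classes. Clusters came from 2000 variable genes, 30 principal components, 20 neighbours and Leiden resolution 0.8, with seed 1. The code for the ratio of libraries and its interval was run on simulated Poisson counts, and the other steps were not. Such counts hold no unevenness among cells, so whether the intervals cover these data was not tested. TMM factors were from edgeR 4.0.16 (R 4.3.3). Clustering used leidenalg 0.10.2 and scanpy 1.11.5, tables pandas 2.3.3, intervals scipy 1.17.1, figures matplotlib 3.10.9 and arrays numpy 2.4.6, under Python 3.11.15. Promoters came from RefSeq, build GRCr8, another build than that of the counts, so no coordinates were joined.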

Additional observations from a re-analysis of the deposited data

Results flagged for a closer look

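For 3 genes the ratio of case over control lay on opposite sides of 0 in different classes, with intervals that did not include 0. The difference between classes was not tested, since each class rested on the same 2 libraries. Ccnd1 had log2 ratios of 0.17 in VSMC-gated, -0.24 in fibroblast-gated and 1.66 in macrophage-gated cells. The interval in VSMC-gated cells, 0.00 to 0.34, barely cleared 0. The macrophage ratio rested on 5 and 27 UMIs, of which 1 case cell held 12, and it turned to -0.61 after thinning. Within the fibroblast clusters Ccnd1 was at -0.19 in that led by Alpl, close to the class, and at 0.30 in that led by Cilp. Both intervals included 0. Cdkn1a had -0.076 in VSMC-gated, -0.58 in fibroblast-gated and 0.71 in endothelial-gated cells. Within the endothelial clusters Cdkn1a was at 0.26 (-0.21 to 0.74) in that led by Pkhd1l1 and -0.20 (-0.73 to 0.37) in that led by Fabp4. Cdkn1b had -0.11 in VSMC-gated and 0.20 in fibroblast-gated cells. The ratios of Cdkn1a and Cdkn1b in VSMC-gated cells were close to the median of all genes in that class, -0.12, and turned positive under TMM scaling.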

How the results depend on the processing

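The count of the 10 genes past 1.5-fold kept within 1.5 times its value in endothelial-gated cells (5) and macrophage-gated cells (3) in 11 and 10 of 12 alternatives. The exceptions were a minimum of 50 CPM, with 3 and 0, and no minimum, with 5 in macrophage-gated cells. A kept count could hide other genes. After thinning the 4 genes past the limit in macrophage-gated cells were Ccnd1, Ccnd2, Cdkn1b and Cdkn1c. There Cdkn1b moved from -0.35 to 1.07 and Cdk4 from -1.43 to -0.34, under the limit. In VSMC-gated cells the count of 1 became 2 under TMM scaling (Cdk4 and Pcna) and with no minimum (Cdk4 and Rb1), and 0 under equal weight per cell, after thinning and with a minimum of 50 CPM, where Cdk4 fell below the minimum. In fibroblast-gated cells the count of 1 became 0 under TMM scaling, with classes from clusters and with a minimum of 50 CPM, and 3 with no minimum. With equal weight per cell it stayed 1, but the gene was Pcna (higher in case) in place of Ccnd3. In endothelial-gated cells thinning moved the ratios of Ccnd2 from -1.49 to -0.87, Cdk4 from -2.30 to -3.45 and Cdkn1c from -1.09 to -2.28, and brought that of Cdkn1a to 0.55, under the limit. Of the log2 ratios under 10 alternatives, 93 of 100 in VSMC-gated, 98 of 100 in fibroblast-gated, 97 of 100 in endothelial-gated and 86 of 99 in macrophage-gated cells kept their sign. In macrophage-gated cells the ratios of Ccnd1 and Ccnd2 turned to -0.61 and -0.76 after thinning, and that of Cdkn1c to -0.064 with a lower gate cutoff and -0.67 with classes from clusters; the cause was not tested. Scrublet called 6 control and 0 case cells, too few to have worked, so doublets were in effect left in. That alternative could hardly turn a sign, though it is among the 10 counted above. Of 80 shares of cells with a UMI, 73 left their interval after thinning, which lowers depth by construction. No paired analysis was possible because each group has 1 library. Macrophage and endothelial values rest on 40 and 52 control cells, and injury and library cannot be told apart.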

Other observations

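Schwann-gated cells numbered 18 in control and 44 in case and entered no comparison of libraries or order of classes. Beside the 4 classes they held the highest level of Cdkn1a in control, 1367 CPM (115 UMIs, of which 1 cell held 38). In case they were at 534 CPM (85 UMIs, interval 426 to 660), which overlapped macrophage-gated cells at 519 CPM (463 to 580). Without the cell richest in Cdkn1a in each class, these case levels were 482 and 506 CPM. Cdkn1b was highest in Schwann-gated cells in both libraries, at 345 and 396 CPM, against 160 and 157 CPM in endothelial-gated cells, the next class. Cdkn1c was at 250 CPM in control (21 UMIs) and 43.9 CPM in case (7 UMIs). Ccnd3, Cdk4, Cdk6 and Rb1 had 0 to 4 UMIs in each library, and 0 UMIs of Cdk6 in control allow up to 3.

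Over the 4 classes and 2 libraries (8 points), the genes whose log2(CPM + 1) followed each G1 gene most closely were Zfp638, Anxa2 and Dpagt1 for Ccnd1, Suclg2, Gtf2i and Kank1 for Ccnd2, and Aldh2, Micos13 and Anapc11 for Ccnd3. They were Igtp, Nme3 and LOC100359583 for Cdk4 and Ptprm, Icam2 and Fgfr1op2 for Cdk6. For the inhibitors they were Psmd12, Ptp4a2 and Zfp384 (Cdkn1a), Zmym5, Rere and Schip1 (Cdkn1b), and Nf1x, Mrps25 and Cwc15 (Cdkn1c). For Rb1 they were LOC108349594, Marc2 and Slc35a1, and for Pcna Hnrnpc, Prpf4b and Dhx8. Pearson r ranged from 0.89 for Dhx8 to 0.998 for Nf1x. The points share libraries, 5019 genes were searched for each, and no test was made.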
